A study of Mus musculus with 20 samples.

Results

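Adipogenesis is driven by a small circuit of transcription factors, and 8 of its genes are described here in inguinal subcutaneous white adipose tissue (iWAT), out of 36611 genes summed from the deposited transcripts. The 8 were chosen by name, with no rule on their values, but earlier results of these data were known. They are Pparg, Cebpa, Cebpb, Cebpd, Rxra, Ebf1, Ebf2 and Klf15, with each of the 2 deposited transcripts of Pparg taken on its own as well. RNA-seq was made from 20 female C57BL/6 mice, 6 months old, in 4 groups of 5. Mice homozygous for a Tmem120a allele with floxed exons 2 and 3 (Tmem120a fl/fl) carried Adiponectin-Cre (Ad-Tmem120a-/-, knockout) or, as littermates, did not (control, labelled wild type), and for 15 weeks mice of each genotype ate either a diet with 10.5% fat (LFD) or one with 58% fat (HFD). All 4 groups therefore carried the floxed allele. Adiponectin-Cre acts in adipocytes, whereas the RNA came from the whole tissue, so that the other cells of the fat pad kept an intact Tmem120a. In such bulk RNA fewer cells of a type and less RNA per cell cannot be told apart.

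When a fat cell precursor is induced, Cebpb and Cebpd, basic leucine zipper factors of the C/EBP family, come up early and help to switch on Pparg and Cebpa. PPARG, a nuclear receptor, binds DNA as a heterodimer with RXRA, the retinoid X receptor, and together with CEBPA it keeps the genes of lipid uptake, storage and adipokine secretion active in the mature adipocyte. EBF1 and EBF2 are early B-cell factors with roles in the fat lineage, EBF2 mostly in the precursors of brown and beige fat, and KLF15 is a Krüppel-like factor that glucocorticoids induce. Pparg is read from separate promoters. The gamma 1 form is found in many cell types, and the gamma 2 form, which has a longer N terminus, is the one most closely tied to adipocytes. Tmem120a encodes a transmembrane protein of the nuclear envelope that is abundant in fat.

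The structures of both Pparg transcripts in the GENCODE vM1 annotation are shown first, because the isoform values rest on the few bases that tell them apart (assembly NCBIM37, plus strand). Gamma 1 (ENSMUST00000171644, chr6:115311239-115440419) had 8 exons and 475 codons, and gamma 2 (ENSMUST00000000450, chr6:115372084-115440419) had 7 exons and 505 codons. They shared 6 exons with 1642 bases, and only 215 bases of gamma 1 and 127 bases of gamma 2 were their own. The start sites lay 60845 bases apart. The coding part of the first exon of gamma 2 (82 bases, chr6:115372129-115372210, start codon in capitals) joins the first shared exon (first 20 bases, chr6:115389858-115389877, start codon of gamma 1 in capitals), which adds 30 codons to gamma 2:
gamma 2 first exon, coding part: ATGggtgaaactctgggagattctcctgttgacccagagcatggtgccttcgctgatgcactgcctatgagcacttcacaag
start of the shared exon: aaattaccATGgttgacaca

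The 250 bases before each start site differed sharply in base composition. The stretch before gamma 1 (chr6:115310989-115311238) held 78.4% G and C, more than 97.5% of 20378 promoter windows of the same length, and the stretch before gamma 2 (chr6:115371834-115372083) held 40.8%, more than 14.7% of them. Of 6 motifs searched on both strands, only the C/EBP motif TTNNGNAA was met, with 2 matches before gamma 2 (in capitals, 215 and 16 bases before the start) and none before gamma 1. This motif occurs in 35.7% of the promoter windows, so a match is a description of the letters and not a binding site. The motifs without a match in either stretch were the PPAR-RXR repeat, AGGTCA followed after any 1 base by AGGTCA (in 0.0491% of windows), the EBF palindrome, TCCC and GGGA with any 2 bases between (0.839%), the GC box GGGCGG (39.2%), the TATA box TATAAA (12.9%) and the glucocorticoid receptor motif ACANNNTGT (5.32%):
before gamma 1: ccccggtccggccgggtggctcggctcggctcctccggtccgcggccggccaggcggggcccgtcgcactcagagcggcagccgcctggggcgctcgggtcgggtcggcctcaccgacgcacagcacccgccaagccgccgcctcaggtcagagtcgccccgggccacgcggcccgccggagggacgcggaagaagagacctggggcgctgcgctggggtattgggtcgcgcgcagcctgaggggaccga
before gamma 2: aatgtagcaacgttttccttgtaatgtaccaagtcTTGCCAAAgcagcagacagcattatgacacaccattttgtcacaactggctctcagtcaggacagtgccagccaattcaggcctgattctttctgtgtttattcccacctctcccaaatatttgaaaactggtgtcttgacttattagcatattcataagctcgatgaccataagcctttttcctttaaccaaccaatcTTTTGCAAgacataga

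The libraries held between 54605101 and 92387737 estimated read pairs. The targeted gene was checked first. Tmem120a lay between 57.9 and 196 TPM (transcript abundance per length, scaled to the same total in every library) in the 10 control mice and between 21.5 and 89.7 TPM in the 10 knockout mice. Over both diets it was lower in the knockout (log2 fold change -1.64, SE 0.237, edgeR adjusted p = 0.00452), but the genotypes overlapped: knockout mouse 7 on LFD (74.0 TPM) and knockout mouse 21 on HFD (89.7 TPM) lay above the lowest controls of their diet. The white adipocyte marker Adipoq lay between 638 and 1502 TPM and Fabp4 between 10986 and 24648 TPM in every library, and none of the 10 white adipocyte markers was at 0 in any group. Skeletal muscle fibre genes summed to between 58.3 and 4550 TPM per library.

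The 8 genes covered a wide range of levels, and their order was nearly the same in all mice (see the plot of TPM by group). Pparg was the highest, with a mean of 159 TPM over the 20 libraries (SD 32.4), above 96.8% of the genes whose mean reached 0.5 TPM. Ebf1 followed with 78.3 TPM (SD 13.7) and lay below Pparg in 20 of 20 libraries. Cebpa, at 23.7 TPM (SD 12.7), and Rxra, the partner of PPARG, at 21 TPM (SD 5.49), did not keep an order: Cebpa was the higher in 12 of 20 libraries. Klf15, at 9.43 TPM (SD 3.42), was below Rxra in 20 of 20. The early factors were low in this mature tissue, with Cebpd at 3.87 TPM (SD 1.57) and Cebpb at 2.40 TPM (SD 0.714), and Cebpd was above Cebpb in 18 of 20 libraries. The gene model of Cebpd is annotated as a pseudogene in this early annotation, and its values are used as deposited.

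**Figure D1:**
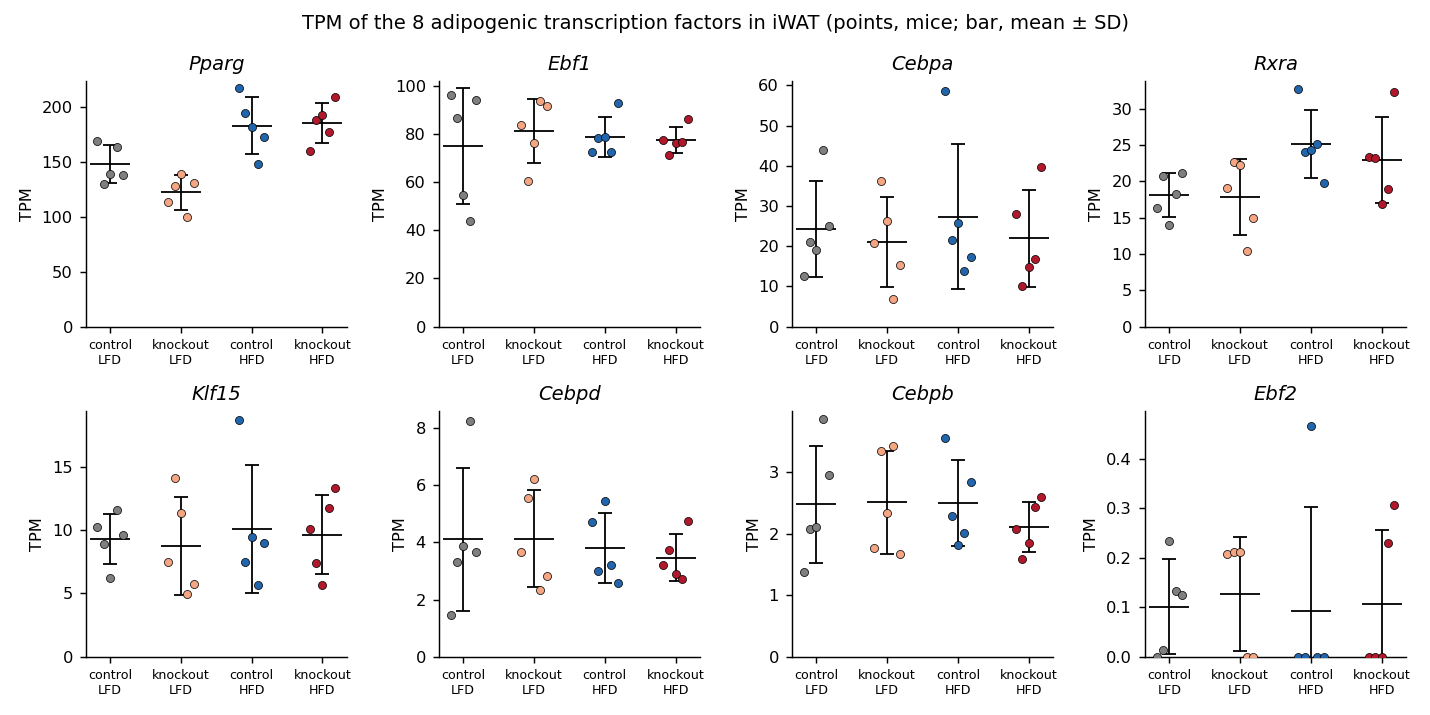
TPM (y axis, linear from 0) of the 8 genes in the 4 groups of 5 mice; each point is a mouse, and the bar gives the mean ± SD. Pparg of the knockout lay between 99.5 and 139 TPM on LFD and between 160.0 and 209 TPM on HFD with no overlap, whereas the groups of the other genes overlapped in each of the pairwise comparisons.

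Ebf2 was close to the limit of the libraries. Its mean was 0.107 TPM, and 10 of 20 libraries held no count of it, where a count of 0 allows up to 3 counts per library. The counts are Salmon estimates, which can give few ambiguous reads to a transcript or to none, so a 0 need not mean that no read touched the gene. The other libraries held between 4 and 149 counts. Control mice on LFD gave 0, 0.0137, 0.233, 0.134 and 0.125 TPM, and knockout mice on LFD gave 0.207, 0.213, 0.211, 0 and 0 TPM. On HFD 1 control mouse (0.467 TPM) and 2 knockout mice (0.230 and 0.307 TPM) were above 0. The groups overlapped throughout, Ebf2 passed no filter on low values, and it was not tested further. The other 7 genes were tested in every comparison.

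None of the 7 tested genes was called between genotypes. With edgeR's quasi-likelihood test and a call at an adjusted p under 0.1, 0 of 7 were called for knockout against control on HFD, where 0.00657% of all genes tested were called. On LFD it was 0 of 7 (0.00636% of all genes), and over both diets 0 of 7 (0.0385% of all genes). Within each diet edgeR called 0% of all genes lower. Tmem120a, the deleted gene, was therefore not called on either diet alone, and a missing call within a diet does not show that a gene was unchanged. At an unadjusted p under 0.05 the count was 0 on HFD (4.66% of all genes), 1 on LFD (5.11%) and 0 over both diets (7.44%), and DESeq2 and limma called none either. Of all genes DESeq2 called 100 of 15228 on HFD, 17 of 15717 on LFD and 32 of 15574 over both diets. The 95% intervals of the difference over both diets ran from -0.39 to 0.00 for Pparg, from -0.34 to 0.07 for Rxra, from -0.35 to 0.30 for Ebf1, from -0.52 to 0.32 for Cebpb, from -0.58 to 0.27 for Klf15, from -0.63 to 0.38 for Cebpd and from -0.89 to 0.30 for Cebpa (log2 fold change).

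Pparg, the central factor of the circuit, was called higher on HFD over both genotypes and in the knockout, but not in controls. Control mice on LFD gave 169, 129, 139, 163 and 138 TPM, and knockout mice on LFD gave 113, 128, 139, 99.5 and 131 TPM. On HFD the controls gave 217, 194, 181, 148 and 173 TPM, and the knockout mice gave 160.0, 188, 192, 177 and 209 TPM. All 5 knockout mice on HFD were above all 5 on LFD, a separation met by 7.95% of the genes tested. None of the 7 genes was apart in this way between diets in controls (9.78% of all genes), between genotypes on HFD (0.69%) or between genotypes on LFD (1.4%), but 4 of 5 control mice on HFD were above all controls on LFD. The knockout mice on LFD formed the lowest group, with 3 of 5 below every control on that diet. Levels on the TPM scale carried a general shift: the median gene was 0.0973 higher on HFD than on LFD on the log2(TPM + 1) scale. With TPM rescaled by TMM factors the means were 162 ± 24.4 in controls on LFD, 125 ± 15.1 in knockout mice on LFD, 173 ± 20.5 in controls on HFD and 174 ± 12.4 in knockout mice on HFD (SD, n = 5 each). On that scale the knockout mice were again apart between diets, and 2 of 5 controls on HFD lay above all controls on LFD.

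By edgeR on the counts, which were TMM-scaled, Pparg rose on HFD over both genotypes (log2 fold change 0.27, SE 0.0944, adjusted p = 0.0479). It was 1 of 2 genes of the 7 called there, the other being Rxra, both higher, and 12.5% of all genes tested were called higher and 25.2% in either direction. In the knockout Pparg rose by 0.46 (SE 0.131, adjusted p = 0.0653), as the only one of the 7 called, where 9.4% of all genes were called and 4.55% called higher. In control mice, the difference was 0.08 (95% interval -0.21 to 0.37, adjusted p = 0.792), and 0 of 7 were called against 9.32% of all genes, with 0 of 7 at an unadjusted p under 0.05 (20.7% of all genes), 0 by DESeq2 and 1, Rxra, by limma on log2(TPM + 1) (adjusted p = 0.0982). The test of the difference between these responses did not pass (genotype by diet interaction 0.35, SE 0.177, 95% interval -0.01 to 0.72, unadjusted p = 0.059, adjusted p = 0.9999). In that test 0 of 7 were called by edgeR, DESeq2 or limma, with 0 of 7 at an unadjusted p under 0.05 (3.6% of all genes) and 0% of all genes called. Pparg was therefore called higher on HFD in the knockout and not in controls, but these responses are not shown to differ.

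**Figure D2:**
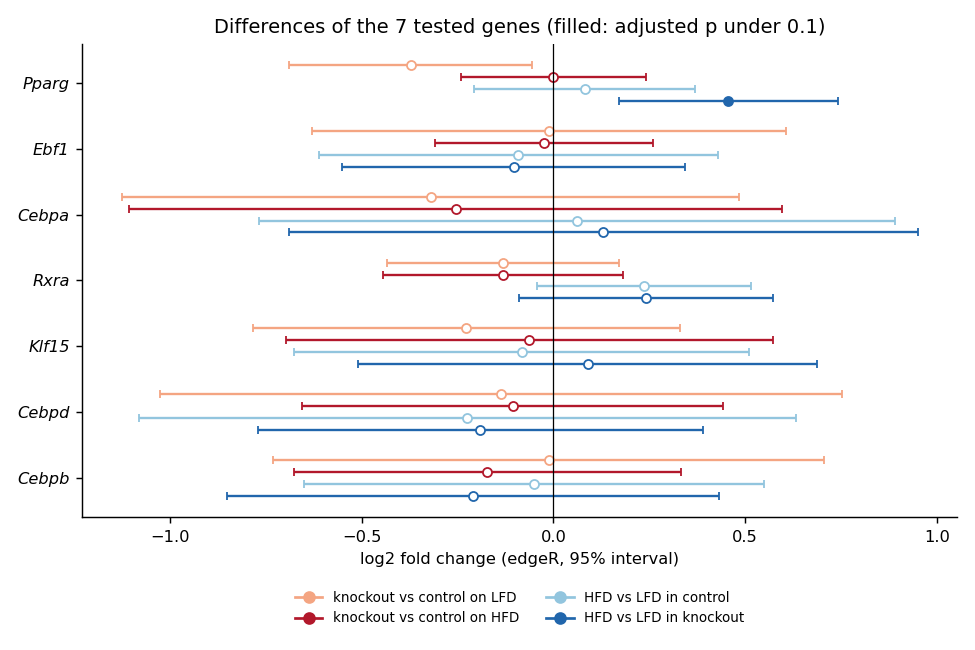
log2 fold change by edgeR (x axis) of the 7 tested genes (y axis) in the 4 pairwise comparisons, which share groups; points are estimates, bars are 95% intervals, and a filled point has an adjusted p under 0.1. The only filled point is Pparg for HFD against LFD in the knockout, at 0.46.

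The call of Pparg over both genotypes held without any single library (adjusted p between 0.0233 and 0.0887). The call within the knockout was weaker in that sense. It was lost when knockout mouse 6, 7 or 9 on LFD or knockout mouse 18, 19 or 21 on HFD was left out, with adjusted p = 0.164, 0.118, 0.116, 0.111, 0.153 and 0.118, while the log2 fold change stayed between 0.39 and 0.53 in all 10 of these fits. Mice 7 and 21 are those whose Tmem120a lay above the lowest controls of their diet. By edgeR the same comparison called 1 of 10 white adipocyte markers (Lep, higher), 3 of 14 fat progenitor and stromal markers higher and 1 lower, and 1 of 11 endothelial markers higher and 1 lower. Of all genes tested in this comparison, 4.55% were called higher and 4.85% lower, and no list was tested against these shares. As sums, in which abundant genes such as Fabp4 weigh most, white adipocyte markers lay between 15226 and 20845 TPM in knockout mice on LFD and between 20306 and 30043 TPM on HFD. Fat progenitor and stromal markers summed to 2237 to 3084 TPM on LFD and 3434 to 3846 TPM on HFD, and endothelial markers to 220 to 292 TPM and 279.8 to 486 TPM. Muscle fibre genes lay between 77.2 and 1460 TPM and between 135 and 1999 TPM, with 0 of 19 called. In controls 12 of 19 were called lower on HFD by edgeR, 6 by DESeq2 and 1 by limma, where edgeR called 4.9% of all genes lower. In either direction DESeq2 called 2205 and limma 2139 of 15311 genes there. The part of these cell types in the rise of Pparg was not tested.

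On LFD the lower Pparg of the knockout mice did not pass the test (log2 fold change -0.37, SE 0.145, edgeR unadjusted p = 0.0254, adjusted p = 0.929). On HFD the genotypes were level (0.00, 95% interval -0.24 to 0.24). Control mice on LFD are the reference in one of these comparisons and in the diet comparison as well, so the values are not independent of each other.

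Both Pparg transcripts were well represented (see the plot of the isoforms). Over the 20 libraries gamma 2 had a mean of 86.6 TPM (SD 22.2) and gamma 1 a mean of 72.8 TPM (SD 12.9), and gamma 2 was the higher in 16 of 20 libraries. In control mice on LFD gamma 2 was at 80.4, 62.0, 81.3, 103 and 74.2 TPM, and in knockout mice on LFD at 58.1, 67.3, 80.1, 40.4 and 63.3 TPM. On HFD it was at 128, 101, 97.1, 80.8 and 91.7 TPM in controls and at 84.0, 109.6, 105, 108 and 118 TPM in knockout mice. The knockout mice on HFD all lay above those on LFD, as in 5.2% of all transcripts tested with a separation in either direction, and knockout mouse 9 on LFD was the lowest of the 20. Gamma 1 lay between 54.9 and 67.6 TPM in knockout mice on LFD and between 69.5 and 91.0 TPM in knockout mice on HFD, again with no overlap. In controls gamma 1 lay between 57.8 and 88.4 TPM on LFD and between 67 and 93.0 TPM on HFD, and overlapped.

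**Figure D3:**
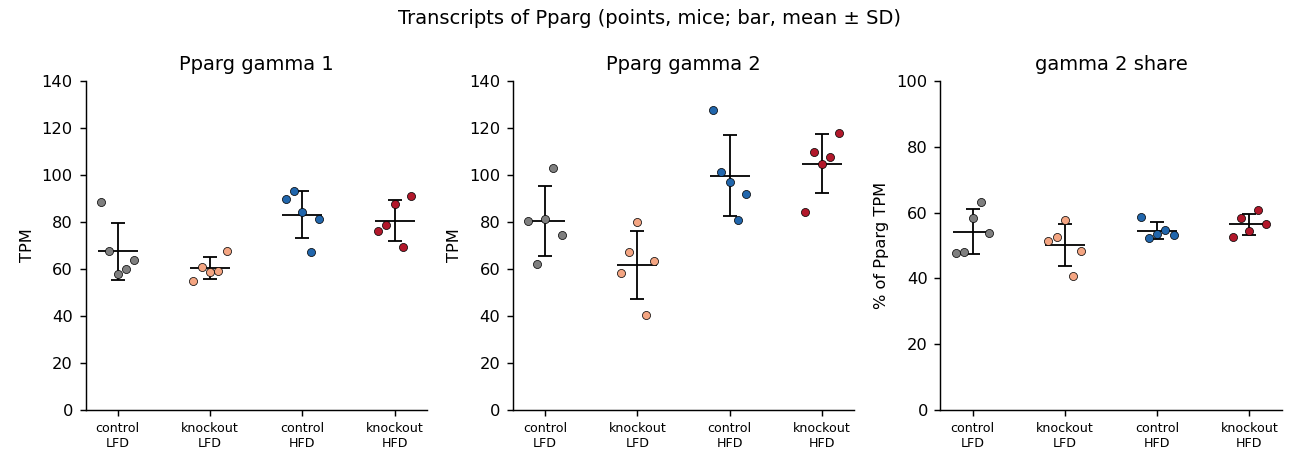
TPM of Pparg gamma 1 and gamma 2 and the gamma 2 share in percent of the Pparg TPM (y axes from 0) in the 4 groups; each point is a mouse, and the bar gives the mean ± SD. Both transcripts of the knockout lay higher on HFD than on LFD without overlap, while the share stayed between 40.6% and 63.2% in all mice.

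Tested against all transcripts, neither form was called. Over both genotypes gamma 2 was higher on HFD by 0.36 (log2 fold change, SE 0.141, edgeR adjusted p = 0.167) and gamma 1 by 0.21 (SE 0.0825, adjusted p = 0.182), and 8.58% of all transcripts tested were called. The call depended on the tool: DESeq2 gave adjusted p = 0.0967 for gamma 2 and 0.0899 for gamma 1, and limma on log2(TPM + 1) gave 0.0091 and 0.0108. Leaving out control mouse 1 on LFD brought gamma 1 to an edgeR adjusted p = 0.0162, and leaving out control mouse 4 on LFD brought gamma 2 to 0.0567. In the knockout alone the difference between diets was 0.61 for gamma 2 (SE 0.18, edgeR adjusted p = 0.228) and 0.29 for gamma 1 (SE 0.110, adjusted p = 0.388). For genotype over both diets 0 of 2 transcripts were called by edgeR, DESeq2 or limma, 1 of 2 had an unadjusted p under 0.05 (3.91% of all transcripts), and 0.0142% of all transcripts were called.

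The share of gamma 2 in the Pparg TPM compares the transcript estimates apart from their total. It was 54.2% ± 6.75 in controls on LFD, 50.1% ± 6.31 in knockout mice on LFD, 54.4% ± 2.56 in controls on HFD and 56.5% ± 3.21 in knockout mice on HFD (SD, n = 5 each). No pairwise difference passed a two-sided exact permutation test of 5 against 5, whose smallest p is 0.00794. HFD minus LFD was 6.34 points in the knockout (exact permutation p = 0.0635, adjusted over 4 comparisons 0.254) and 0.18 points in controls (p = 0.937, adjusted 0.937 by the same exact test). Knockout minus control was -4.09 points on LFD (exact permutation p = 0.341, adjusted 0.455) and 2.07 points on HFD (exact permutation p = 0.302, adjusted 0.455).

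Rxra, which encodes the dimer partner, also rose on HFD over both genotypes (log2 fold change 0.24, SE 0.0997, edgeR adjusted p = 0.0971). Control mice gave 16.3, 20.8, 14, 18.3 and 21.1 TPM on LFD and 32.7, 24.0, 24.3, 25.1 and 19.8 TPM on HFD. Knockout mice gave 19, 22.7, 22.2, 10.3 and 15.0 TPM on LFD and 23.4, 23.2, 16.9, 18.9 and 32.4 TPM on HFD. In controls 4 of 5 mice on HFD lay above all on LFD, in knockout mice 3 of 5, and the groups overlapped in both genotypes. The estimates within each genotype were alike, 0.24 in controls (SE 0.128) and 0.24 in the knockout (SE 0.152), and neither was called. The call over both genotypes was close to the threshold. It was lost with offsets for transcript length (adjusted p = 0.13) and in 13 of the 20 fits without 1 library (adjusted p between 0.105 and 0.195). These were the fits without control mouse 1, 2, 3 or 4 or knockout mouse 6, 9 or 10 on LFD, and without control mouse 11, 12 or 13 or knockout mouse 17, 19 or 21 on HFD.

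Cebpa, which sustains Pparg in the mature adipocyte, did not follow the groups. Control mice on LFD gave 12.6, 21, 19, 44.0 and 24.9 TPM, and knockout mice on LFD 20.7, 36.3, 26.3, 6.81 and 15.4 TPM. On HFD the controls gave 58.5, 21.5, 25.7, 13.9 and 17.3 TPM and the knockout mice 28.1, 10.1, 14.9, 16.8 and 39.8 TPM. Each group held low and high mice, the groups overlapped throughout, and the highest library held 8.59 times the level of the lowest. The coefficient of variation over the 20 libraries was 53.5% for Cebpa, against 20.3% for Pparg and 17.4% for Ebf1. The diet difference of Cebpa over both genotypes was 0.10 (log2 fold change, 95% interval -0.49 to 0.69, edgeR adjusted p = 0.857).

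The early C/EBP factors and Klf15 showed no call in either direction. Cebpb, an early inducer of the circuit, lay between 1.38 and 3.87 TPM in controls on LFD, 1.67 and 3.42 TPM in knockout mice on LFD, 1.82 and 3.55 TPM in controls on HFD and 1.59 and 2.60 TPM in knockout mice on HFD. Cebpd, its early partner, lay between 1.46 and 8.24, 2.32 and 6.20, 2.58 and 5.46, and 2.73 and 4.76 TPM in the same order of groups. For Klf15, the glucocorticoid-induced factor, the ranges were 6.23 to 11.6, 4.95 to 14.1, 5.64 to 18.7 and 5.65 to 13.3 TPM. Every one of these ranges overlapped with the others of its gene. The diet differences over both genotypes were -0.13 for Cebpb (95% interval -0.55 to 0.29), -0.21 for Cebpd (-0.71 to 0.29) and 0.00 for Klf15 (-0.42 to 0.43).

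The spread of several of these genes ran with a measure of the base composition of each library. For each library a GC slope was taken, the change in log2 CPM (counts scaled to the same library total), relative to the mean of each gene over all libraries, for every 10 points of GC content of the transcript. It ran from -0.43 (knockout mouse 9 on LFD) to 0.39 (control mouse 11 on HFD) and overlapped between all 4 groups, with group means of 0.0107, -0.0700, 0.0712 and -0.0119 for controls on LFD, knockout on LFD, controls on HFD and knockout on HFD. The transcript of Cebpa is 62.6% G and C, Cebpb 67.2%, Cebpd 63.0%, Rxra 57.0% and Klf15 56.5%, all above the median tested gene (49.3%), whereas Pparg is at 45.2% and Ebf1 at 43.1%. Tmem120a is at 57.5%. Knockout mouse 7 on LFD (slope 0.276) and knockout mouse 21 on HFD (slope 0.299) had the highest slopes of their groups. Their Tmem120a lay above the lowest controls of their diet, and the relation of Tmem120a to the slope was not tested.

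Over the 20 libraries, with group means removed, log2(TPM + 1) of Cebpa followed this slope closely (Pearson r = 0.958, permutation p = 1e-05, the smallest that 100000 permutations give, adjusted over 7 relations 7e-05; Spearman rho = 0.967, permutation p = 1e-05). Without the 2 libraries farthest from the median slope, r was 0.951. Cebpd (r = 0.784, rho = 0.782, adjusted permutation p = 0.0010), Klf15 (r = 0.783, rho = 0.755, adjusted permutation p = 0.0010) and Rxra (r = 0.736, rho = 0.749, adjusted permutation p = 0.0025) followed it as well, with r between 0.691 and 0.846 without the 2 farthest. Cebpb was weaker (r = 0.514, rho = 0.514, adjusted permutation p = 0.0489, and 0.0538 for rho). For Pparg (r = 0.353, rho = 0.274, adjusted permutation p = 0.163) and Ebf1 (r = -0.446, rho = -0.350, adjusted permutation p = 0.0513) the relation did not pass. The slope was fitted over 15574 genes of these same libraries, the 7 among them. A GC-rich gene is therefore likely to follow it, and the share of other genes that do was not computed.

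**Figure D4:**
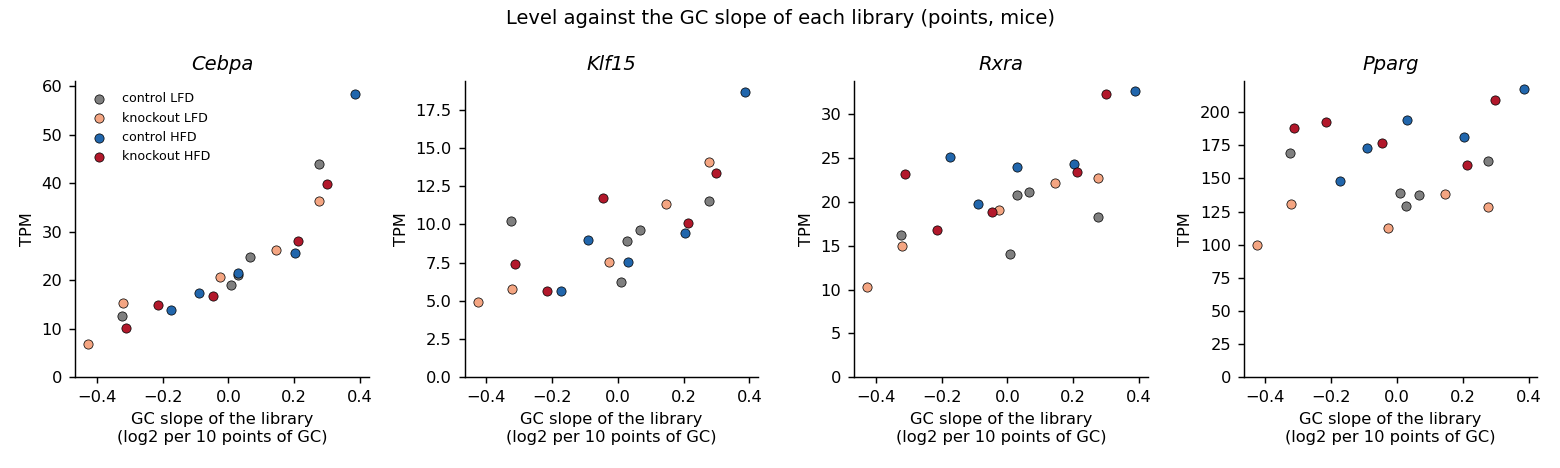
TPM of Cebpa, Klf15, Rxra and Pparg (y axes from 0) against the GC slope of the library (x axis, log2 units for 10 points of GC content); each point is a mouse, coloured by group. Cebpa rises along the slope from 6.81 to 58.5 TPM through all 4 groups, and Pparg lies between 99.5 and 217 TPM, where its relation to the slope did not pass the test.

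A fit with offsets for GC content was added after these values were seen. The pooled SD within groups of log2 CPM fell from 0.683 to 0.368 for Cebpa, from 0.530 to 0.345 for Cebpd, from 0.461 to 0.337 for Klf15, from 0.417 to 0.310 for Ebf1 and from 0.217 to 0.172 for Rxra. It rose for Cebpb, from 0.403 to 0.472, and for Pparg, from 0.168 to 0.202. The calls stayed as they were: Pparg on HFD over both genotypes (0.28, SE 0.0954, adjusted p = 0.0375) and in the knockout (0.45, SE 0.123, adjusted p = 0.0387), and Rxra over both genotypes (0.18, SE 0.0710, adjusted p = 0.0735). No other of the 7 was called in any comparison of that fit. For Cebpa the interval narrowed with the spread, and the diet difference was 0.01 (SE 0.156).

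The genes that varied with the slope also varied with each other. Of 21 pairs of the 7 genes, with group means removed, 6 passed an adjusted permutation p of 0.05. Cebpa ran with Klf15 (r = 0.807, rho = 0.755, adjusted permutation p = 0.0038), with Rxra (r = 0.760, rho = 0.759, adjusted permutation p = 0.0062) and with Cebpd (r = 0.744, rho = 0.717, adjusted permutation p = 0.0038). Rxra ran with Klf15 (r = 0.724, rho = 0.681, adjusted permutation p = 0.0074) and with Cebpd (r = 0.585, rho = 0.666, adjusted permutation p = 0.0257). Cebpd and Ebf1 ran against each other (r = -0.711, rho = -0.603, adjusted permutation p = 0.0152), and this pair weakened to r = -0.455 without the 2 farthest libraries, while the other 5 kept r of 0.644 to 0.756. All 5 positive pairs join GC-rich genes that followed the slope, so the correlations are not independent of it. The share of pairs of other genes that pass was not computed. Pparg and Cebpa had r = 0.515 (rho = 0.355, adjusted permutation p = 0.0857), and r = 0.307 without the 2 farthest.

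For each gene the 3 genes with the most similar pattern over the 20 libraries, among 13976 with a mean of at least 1 TPM, are given as a description (Pearson r of log2(TPM + 1), group differences included). Pparg was most like Ctnnbip1 (0.908), Mfsd8 (0.900) and Dbi (0.894), the last encoding an acyl-CoA binding protein. Cebpa was most like Lipe (0.966), which encodes hormone-sensitive lipase, then Pgm2 (0.953) and Fcgrt (0.953). Rxra had Copg (0.942), Actg1 (0.916) and Plbd2 (0.911). The most similar genes of the low factors had ribosomal or mitochondrial ribosomal members among them: Cebpd had Hint1 (0.897), Rplp1 (0.891) and 1810006K21Rik (0.883), and Cebpb had Mrps12 (0.815), Abhd11 (0.800) and Tob1 (0.767). Klf15 had Mtch1 (0.886), Metrn (0.886) and Repin1 (0.881). Ebf1 had Rps6ka3 (0.929), a kinase gene, Apbb2 (0.861) and Akap11 (0.860), with GC contents of 40.5%, 56.0% and 41.9% in this order.

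Ebf1 showed a change in 1 transcript that its gene sum did not show. The gene sum lay between 43.9 and 96.2 TPM over all mice and differed between diets by -0.09 (log2 fold change over both genotypes, 95% interval -0.42 to 0.23, edgeR adjusted p = 0.743). Of the 22 transcripts of the 8 genes in the table, 17 were tested over all libraries and 1 was called for diet, against 8.58% of all transcripts (4.24% lower). This was ENSMUST00000149997 (chr11:44431618-44460322), a processed transcript with no coding sequence, 3968 bases long in 6 exons, which is singled out here after its values were seen. It shares 4 exons with the longest Ebf1 transcript, and 3351 of its bases, all in its last exon (chr11:44456903-44460322), are in no other Ebf1 transcript of the table.

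ENSMUST00000149997 was at 13.5, 15.2, 9.01, 6.76 and 14.1 TPM in control mice on LFD and at 20.1, 14.9, 14.6, 29.8 and 23.8 TPM in knockout mice on LFD. On HFD it was at 4.48, 6.22, 6.13, 6.24 and 4.33 TPM in controls and at 5.94, 9.52, 5.40, 9.06 and 6.74 TPM in knockout mice. In both genotypes every mouse on HFD lay below every mouse on LFD, a separation met by 5.65% of all transcripts tested in controls and 5.2% in the knockout. It fell by 1.44 on the log2 scale over both genotypes (SE 0.188, edgeR adjusted p = 0.000105), by 1.25 in controls (SE 0.232, adjusted p = 0.0530, against 1.39% of all transcripts called and 0.496% called lower) and by 1.64 in the knockout (SE 0.282, adjusted p = 0.0414, against 1.06% and 0.571%). Leaving out any 1 library kept the change over both genotypes between -1.52 and -1.34. The other 7 transcripts together lay between 37.2 and 88.6 TPM, with overlap between the groups.

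**Figure D5:**
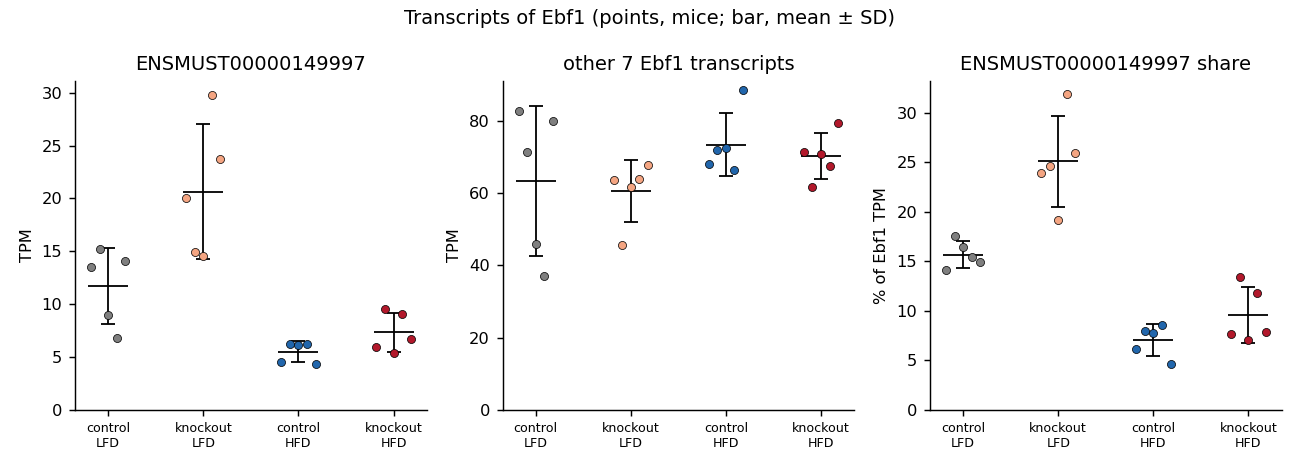
TPM of the Ebf1 transcript ENSMUST00000149997, TPM of the other 7 Ebf1 transcripts together and the share of ENSMUST00000149997 in percent of the Ebf1 TPM (y axes from 0); each point is a mouse, and the bar gives the mean ± SD. ENSMUST00000149997 lay between 6.76 and 29.8 TPM on LFD and between 4.33 and 9.52 TPM on HFD, and the rest of the gene overlapped between the groups.

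Its share in the Ebf1 TPM was 15.7% ± 1.34 in controls on LFD, 25.1% ± 4.56 in knockout mice on LFD, 7.04% ± 1.60 in controls on HFD and 9.54% ± 2.84 in knockout mice on HFD (SD, n = 5 each). The shares ran from 19.1% to 31.8% in knockout mice and from 14.1% to 17.5% in controls on LFD. They are a description of a transcript picked for its values, with no test. As a level, the transcript differed between genotypes on LFD by 0.72 (SE 0.277, edgeR unadjusted p = 0.0272, adjusted p = 1), which was not a call.

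The genes that these factors act on or act with were read from lists of known roles, for HFD against LFD over both genotypes by edgeR. The counts of each list stand beside 12.5% of all genes called higher and 12.7% called lower in this comparison, and none was tested against them. Of 30 target genes of PPARG and CEBPA in adipocytes, 11 rose and 2 fell, with a median log2 fold change of 0.18, beside a median of -0.03 over all genes. Lep, which encodes leptin, rose by 2.26 (SE 0.26), Trarg1, a regulator of glucose transporter traffic, by 1.07 (SE 0.14), Cav1 (caveolin 1) by 0.86 (SE 0.14) and the lipid droplet gene Plin4 by 0.77 (SE 0.16). Within a genotype the count depended on the tool. In controls edgeR called 5 higher and 1 lower and DESeq2 6 and 4, and in the knockout edgeR called 3 higher and 0 lower and DESeq2 10 and 1. By edgeR 9.32% and 9.4% of all genes were called. DESeq2 called more genes in general, 2205 of 15311 in controls and 2247 of 15705 in the knockout, beside 1427 and 1476 by edgeR. Nuclear receptor coregulators, through which PPARG and RXRA act on chromatin, went the other way: 0 of 15 rose and 9 fell, with a median of -0.22. Among them were the acetyltransferases Crebbp (-1.04, SE 0.11) and Ep300 (-0.76, SE 0.12) and the coactivator Ppargc1b (-1.14, SE 0.22). With limma on log2(TPM + 1), where the general shift is included, 5 of 15 fell and 1 rose. That fit called 4736 of 15574 genes in either direction.

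The counts of the next lists also stand beside 25.2% of all genes called in either direction. Among 16 tested anti-adipogenic factors 1 rose and 4 fell, among them Sox9, a factor of cartilage and progenitors (-1.69, SE 0.23), Nr2f2 (-0.76, SE 0.16), Foxo1 (-0.68, SE 0.14) and Zfp521, an antagonist of EBF factors (-0.40, SE 0.11). On the TPM scale with limma 3 rose and 2 fell. Among 19 tested pro-adipogenic factors other than the 8 genes, 2 rose, Klf6 (0.61, SE 0.16) and Nr1h3, which encodes LXR alpha (0.49, SE 0.16), and 3 fell, with Nfia (-0.83, SE 0.13) and Nfib (-0.43, SE 0.16) first. Of 8 tested relatives of the 8 genes, Cebpg rose by 0.14 (SE 0.06) and Ppara, the fatty acid oxidation receptor, fell by 0.83 (SE 0.28). Of 11 glucocorticoid-responsive genes, Dusp1 (0.67, SE 0.18) and Tsc22d3 (0.53, SE 0.15) rose and the clock gene Per1 fell (-0.44, SE 0.16), while Klf15 did not differ. Of 12 tested immediate early genes 3 rose, Jun (0.51, SE 0.11), Atf3 (0.74, SE 0.25) and Fos (0.45, SE 0.17), and 2 fell, Myc first (-0.85, SE 0.13).

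Cell type markers were read in the same comparison, beside the same 12.5% of all genes higher and 12.7% lower. White adipocyte markers had 3 of 10 higher and 1 lower, with Adipoq at 0.36 (SE 0.11) and Adrb3, the beta-3 adrenergic receptor, at -0.73 (SE 0.17). All 10 are also among the 30 target genes of PPARG and CEBPA, so the counts of these lists are not separate. Macrophage markers had 4 of 14 higher and 0 lower, with Gpnmb at 1.17 (SE 0.24), Cd68 at 0.74 (SE 0.16), Mmp12 at 1.71 (SE 0.37) and Trem2 at 1.51 (SE 0.51). Endothelial markers had 5 of 11 higher and 1 lower, with Gpihbp1, which binds lipoprotein lipase, at 0.81 (SE 0.12). Fat progenitor and stromal markers had 3 of 14 higher, such as Pi16 (0.72, SE 0.17), and 2 lower, such as Col1a1 (-0.90, SE 0.16). Brown and beige fat had 0 of 11 higher and 3 lower, muscle fibre 0 of 19 and 2, mammary and skin epithelium 0 of 12 and 3, and lymphocytes 0 of 15 and 0. The part of these cell types in the diet differences of Pparg and Rxra was not tested.

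For genotype, no gene of the 15 lists was called by edgeR on either diet or over both diets, 38 of 202 tested had an unadjusted p under 0.05 on HFD (4.66% of all genes), 7 of 201 on LFD (5.11% of all genes) and 14 of 202 over both diets (7.44% of all genes). All 19 tested muscle fibre genes were among the 38, with a median log2 fold change of 4.79: muscle fibre genes summed to 58.3 to 142 TPM in controls on HFD and to 135 to 1999 TPM in knockout mice on HFD. On LFD they summed to 80.7 to 4550 TPM in controls and to 77.2 to 1460 TPM in knockout mice. The median log2 fold change there was -0.82, and 0 of 20 had an edgeR unadjusted p under 0.05. On HFD DESeq2 called 100 of 15228 genes between genotypes, where edgeR called 1. DESeq2 called 15 of these muscle genes higher in the knockout on HFD, and from the other lists Lcn2 (0.74, adjusted p = 0.0482), Cox7a1 (1.88, adjusted p = 0.0217) and Krt15 (2.53, adjusted p = 0.0720) higher and Itgax, a macrophage marker, lower (-0.79, adjusted p = 0.0136). The 30 target genes of PPARG and CEBPA had a median log2 fold change of -0.25 over both diets, beside -0.01 over all genes, with 4 of 30 at an unadjusted p under 0.05.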

How the data were processed

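RNA-seq of ribosome-depleted total RNA (stranded, paired reads of 150 bases) from 20 iWAT samples was aligned with STAR 2.5.3 and quantified by the authors with Salmon 0.13.1 on the transcripts of NCBIM37 (mm9) in Ensembl release 67. The deposited values are TPM and estimated counts for each of 96533 transcripts. Whether the authors' alignment filters were applied to these values is not given in the sources used here. Salmon splits reads between transcripts that share bases, so isoform values rest on the unshared bases.

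Here, 94334 transcripts (97.7%) were matched to genes by GENCODE vM1 (Ensembl release 65), the annotation used for structures. The unmatched ones held 0.377% to 0.581% of the counts. TPM were summed by gene for levels, and estimated counts were summed and rounded for tests. Genes and transcripts with a mean of at least 0.5 TPM in the libraries compared were tested with edgeR 4.0.16 (quasi-likelihood, TMM, Benjamini-Hochberg over all features, call at an adjusted p under 0.1). Comparisons of 2 groups were fitted on those 10 libraries, and averages and the interaction on all 20. The 4 pairwise comparisons share groups. Isoform shares were compared by exact permutation and correlations by permutation within groups. Settings tried were DESeq2 1.42.0, limma 3.58.1 on log2(TPM + 1) and log2(TPM + 0.1), RLE scaling, no filter, length offsets, leaving out each library, and, chosen after seeing the data, GC offsets. The fits were tested on simulated data.

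The 8 genes and all lists were chosen with earlier results of these data known. Every one of the 8 genes is named, with Tmem120a, Adipoq and Fabp4 as checks of the labels and, for each tested gene, the 3 genes of most similar pattern. List genes are named only where called, with at most the 4 smallest p of a list, less 1 gene that is not reported here, and genes called by DESeq2 alone are named as such. The labels give no batch, and each sample is a separate mouse. Between 54605101 and 92387737 pairs per library (median 72480824) were counted. The floor of 3 counts covers counting error only, whereas the edgeR intervals include the spread between mice.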

Additional observations from a re-analysis of the deposited data

Results flagged for a closer look

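Of 36 sets of 5 mice (a gene or Pparg transcript in a group), 3 held a mouse far from the others by Dixon's criterion, where chance gives about 1 in 20. Cebpa in control mouse 11 on HFD was at 58.5 TPM, with the others between 13.9 and 25.7 TPM. In the same mouse Klf15 was at 18.7 TPM, with the others between 5.64 and 9.42 TPM. This library had the highest GC slope of the 20 (0.39). Ebf2 in control mouse 13 on HFD was at 0.467 TPM, with the others at 0. With all the other values tied at 0, the rate of 1 in 20 does not apply to this set.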

How the results depend on the processing

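No called value changed sign; some uncalled ones did, such as Cebpb and Cebpd for knockout against control on LFD with GC offsets (0.29 and 0.05 in place of -0.01 and -0.14). In control mice, limma on log2(TPM + 1) and on log2(TPM + 0.1) called 1 of the 7 genes for diet in place of 0 (Rxra). Over both genotypes length offsets called 1 in place of 2, without Rxra. Of the 2 Pparg transcripts, DESeq2, limma on log2(TPM + 1) and limma on log2(TPM + 0.1) each called 2 for diet over both genotypes in place of 0. The cause was not tested. The other 61 values of this kind, without leaving out a library, kept their call. When single libraries were left out, the count for diet in the knockout ran from 0 to 1, the count over both genotypes from 1 to 2, and the count of Pparg transcripts over both genotypes from 0 to 1. No paired analysis was possible because the replicate numbers are not shared between the groups. Among the lists, the lower PPARG and CEBPA targets on HFD over both genotypes numbered 2 by edgeR, 5 by DESeq2 and 8 with GC offsets, and the lower muscle genes 2 by edgeR and 11 by DESeq2. Of all 15574 genes, 3931 were called in either direction by edgeR, 4319 by DESeq2 and 4786 with GC offsets. Depth limits Ebf2, with 10 of 20 libraries at 0 counts.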
